A study of Mus musculus with 17 samples.

Results

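The glucose transporter gene Slc2a1 and 9 genes of the glycolytic chain, Hk1, Gpi1, Pfkl, Aldoa, Tpi1, Pgk1, Eno1, Pkm and Ldha, were followed in the choroid plexus of mice with dextran sodium sulfate (DSS) colitis. They are 10 of the 55487 genes in the deposited count table, taken by symbol. All 10 passed the filter on low counts, as did 16851 genes in all. Whole choroid plexus had been dissected from the lateral ventricles of C57BL/6 mice, total RNA had been extracted, and libraries had been made with the SMART-Seq v4 kit for small amounts of RNA. DSS is a polymer given orally that injures the lining of the colon. The groups were untreated controls (CTRL, n = 5), mice with 1 day of DSS (T1, n = 4), mice with 3 days of DSS (T3, n = 4) and mice with 3 days of DSS followed by 2 days of water (T5, n = 4). The labels do not give age or sex, and name no animals behind the samples, so the p-values measure the spread between samples, which may be technical in part.

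Glycolysis splits glucose into pyruvate and yields ATP without oxygen, and lactate dehydrogenase interconverts pyruvate and lactate. The choroid plexus is a folded epithelium around leaky capillaries that secretes cerebrospinal fluid, and the ion pumping behind this secretion consumes much ATP. SLC2A1, also called GLUT1, carries glucose into choroid plexus epithelial cells and across the endothelium of brain vessels. Many glycolytic genes are targets of the hypoxia-inducible factors, which bind the core motifs ACGTG and GCGTG, and of factors that bind the E box CACGTG.

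The bases before the RefSeq start of 4 of the genes are shown because they differ in how often they hold that motif while belonging to 1 pathway. They are the 250 bases before the start, 5′ to 3′ on the strand of the gene, in the build GRCm38.p6 of RefSeq. Capitals mark every match to ACGTG or GCGTG on either strand, so that a match on the other strand reads CACGT or CACGC. The windows are chr4:119108495-119108744 on the plus strand for Slc2a1, chr7:34230337-34230586 on the minus strand for Gpi1, chrX:106186850-106187099 on the plus strand for Pgk1 and chr7:46845554-46845803 on the plus strand for the first of 2 Ldha starts.
Slc2a1: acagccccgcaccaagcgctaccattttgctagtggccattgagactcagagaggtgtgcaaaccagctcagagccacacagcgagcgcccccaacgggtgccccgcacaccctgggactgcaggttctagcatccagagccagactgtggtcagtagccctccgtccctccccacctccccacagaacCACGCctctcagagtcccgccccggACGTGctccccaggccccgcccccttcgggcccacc
Gpi1: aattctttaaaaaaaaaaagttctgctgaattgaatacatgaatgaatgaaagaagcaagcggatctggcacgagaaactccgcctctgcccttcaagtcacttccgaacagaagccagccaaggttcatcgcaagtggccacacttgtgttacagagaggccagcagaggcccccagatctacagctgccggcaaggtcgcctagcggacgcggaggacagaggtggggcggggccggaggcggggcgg
Pgk1: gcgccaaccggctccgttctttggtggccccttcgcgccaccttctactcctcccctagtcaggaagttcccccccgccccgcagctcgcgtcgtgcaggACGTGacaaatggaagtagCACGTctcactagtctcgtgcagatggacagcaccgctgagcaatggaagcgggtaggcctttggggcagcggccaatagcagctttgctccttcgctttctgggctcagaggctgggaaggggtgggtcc
Ldha: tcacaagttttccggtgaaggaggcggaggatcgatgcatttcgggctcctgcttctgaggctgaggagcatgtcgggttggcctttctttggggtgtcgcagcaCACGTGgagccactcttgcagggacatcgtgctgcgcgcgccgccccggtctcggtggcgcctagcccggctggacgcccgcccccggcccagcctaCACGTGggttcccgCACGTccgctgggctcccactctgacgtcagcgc

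Slc2a1 held 1 match to ACGTG and 1 to GCGTG in these 250 bases, Pgk1 held 2 to ACGTG, Ldha held 5 to ACGTG, and Gpi1 held none. In Ldha, 4 of these matches were the 2 strands of its 2 E boxes CACGTG, since that palindrome contains ACGTG. RefSeq gave 17 start windows for the 10 genes, counted over 250 bases before to 50 after a start, and 12 of them, from 8 genes, held ACGTG or GCGTG. Gpi1 and Tpi1 held none. Of all 32851 windows of that length, 43.8% held ACGTG or GCGTG, 19.6% held ACGTG, 32.4% held GCGTG and 7.15% held CACGTG. The windows of the 10 genes were 51.3 to 69.0% G and C, and several windows of 1 gene overlap. A match describes the letters and was not tested as a binding site.

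The levels of the 10 genes spanned a wide range. On the TPM scale, which divides counts by gene length, aldolase A (Aldoa) was highest, with a mean of 1718 ± 149 TPM over the 17 libraries (SD). Aldoa encodes the enzyme that splits fructose bisphosphate into its triose products. Pyruvate kinase (Pkm), which makes pyruvate and ATP in the last step, averaged 852 ± 70.8 TPM and was below Aldoa in 17 of 17 libraries. Triosephosphate isomerase (Tpi1), which interconverts the triose phosphates, averaged 606 ± 59.3 TPM. Lactate dehydrogenase A (Ldha) averaged 531 ± 33.4 TPM, and enolase 1 (Eno1), which makes phosphoenolpyruvate, 488 ± 44.5 TPM. Tpi1 exceeded Ldha in 16 libraries and Ldha exceeded Eno1 in 14, so Ldha and Eno1 did not separate cleanly.

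Phosphoglycerate kinase (Pgk1), the first step that returns ATP, averaged 217 ± 19.7 TPM, and glucose-6-phosphate isomerase (Gpi1) 210 ± 24.1 TPM. Pgk1 was the higher of the pair in 10 of 17 libraries, so their order was not fixed. Slc2a1 averaged 130 ± 35.7 TPM, hexokinase 1 (Hk1), which phosphorylates glucose on entry, 98.0 ± 28.6 TPM, and the liver-type phosphofructokinase (Pfkl), which commits fructose phosphate to glycolysis, 83.8 ± 11.1 TPM. Hk1 exceeded Pfkl in 12 of 17 libraries. With the length of the longest transcript in place of the union of exons, Aldoa and Pkm kept the first places, but Eno1 moved to rank 3 with 1041 TPM, Hk1 to rank 8 with 157 TPM and Slc2a1 to rank 10 with 113 TPM, so these lower ranks depend on the gene model.

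**Figure D1:**
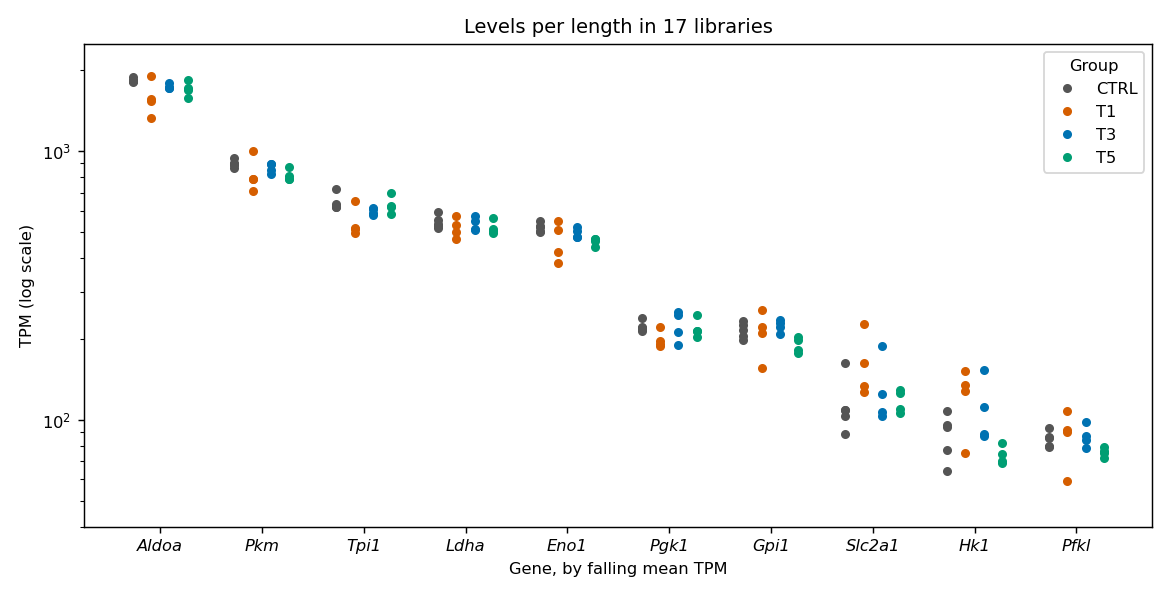
TPM of each gene on a log axis, genes ordered by mean TPM, with 1 point per library and colours for CTRL, T1, T3 and T5. Aldoa lies above every other gene in all 17 libraries, and Hk1 and Pfkl overlap at the bottom.

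At several steps 1 sister gene held nearly all of the level. Hk1 made up 96.5 ± 1.32% of the summed TPM of 5 hexokinase genes, with Aldoa at 95.8 ± 2.75% of 3 aldolases and Eno1 at 90.1 ± 3.64% of 3 enolases (SD, n = 17). Pkm made up at least 99.95% of 2 pyruvate kinases in every library. The picture differed at the lactate step. Ldha made up only 17.1 ± 1.25% of the TPM of Ldha and Ldhb, and Ldhb, whose heart-type subunit favours the oxidation of lactate to pyruvate, averaged 2586 ± 191 TPM. Pfkl made up 27.3 ± 1.74% of the 3 phosphofructokinase genes, beside Pfkm at 116 ± 25.6 TPM and Pfkp at 109 ± 18.3 TPM. Slc2a1 made up 24.4 ± 3.93% of 6 facilitative glucose transporter genes, and Slc2a12, which encodes GLUT12, was the most abundant at 367 ± 83.6 TPM. All these shares take the union of exons as the gene length. They were not computed with the longest transcript and may depend on the gene model.

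Neighbours and copies of these genes had few counts of their own. The largest overlapping partner was Spsb2, on the strand opposite to Tpi1, with 2.25% of the counts of Tpi1; the strand setting of the counting is not given in the sources used here, so reads in the shared exon bases cannot be told apart. Eno1 has 4 near-identical copies, mainly Eno1b, whose counts came to 1.32% of those of Eno1. How reads that map to several places were handled is unknown, so this share does not bound the reads that copies could take from a gene. The symbol Aldoa matched a second row of the table with 2 to 16 counts per library, which was not added to the main row.

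Libraries differed in ways that touch the results. Totals ran from 8875921 to 26839417 counts. The running numbers in the sample titles are 28 or above for T1 replicates 2, 3 and 4 and T3 replicate 4, and below that for the other 13. Those 4 libraries had 1.86 to 2.04% of counts from mitochondrial genes, against 2.50 to 3.75% in the other 13, and 26356 to 30293 detected genes, against 21315 to 24824. No batch is named by the labels. In T1 this difference and 1 day of DSS largely coincide, since all T1 libraries but replicate 1 belong to the 4. The tissue label held, as the 12 markers of choroid plexus epithelium were detected in every library, with summed levels of 98614 to 223551 CPM in T1, 113466 to 190721 in T3, 140379 to 216156 in T5 and 135838 to 203851 in CTRL. Markers of neurons, astrocytes and oligodendrocytes, the cells of the brain around the tissue, were also present in every group, at levels that differed widely between libraries. Summed oligodendrocyte markers ran from 93.9 CPM in a CTRL library to 16621 CPM in a T5 library, and neuron markers from 16.02 to 566 CPM. Their part in the shares of sister genes above was not tested. In bulk tissue, fewer cells of a type and less RNA per cell cannot be told apart.

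After 1 day of DSS, 8 of the 10 genes had lower mean levels than in CTRL, all of them enzymes from Gpi1 to Ldha, and the entry genes Slc2a1 and Hk1 had higher means. None of these differences passed the test. In edgeR's quasi-likelihood test with Benjamini-Hochberg adjustment at 0.05, 0 of the 10 genes were called in T1 against CTRL, as were 0 of all 16851 genes (0% called). At an unadjusted p under 0.05, 7 of the 10 were lower and 0 higher, against 11.7% and 9.43% of all genes tested, and a log2 fold change below 0 was seen in 42.3% of all genes. DESeq2 called 4 of the 10 lower, Aldoa, Tpi1, Eno1 and Pkm, and 0 higher, against 2.52% lower and 1.64% higher of all genes. Limma voom with quality weights called the 8 enzymes from Gpi1 to Ldha lower, against 12.6% of all genes. Its weights are lower for libraries far from their group, and the weight of T1 replicate 1, the only T1 library of low sample number, was not examined. The 4 that DESeq2 called were the ones whose T1 values all lay below every CTRL value. This held for 3.86% of all genes (2.9% lay wholly above CTRL). The median log2 fold change of the 10 was -0.35, against 0.08 over all genes tested.

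Aldoa had 1810, 1581, 1459 and 1529 CPM in T1, against 1986, 2199, 2276, 2513 and 2137 CPM in CTRL. CPM here are counts scaled to library size with edgeR's TMM factors. T1 replicate 1 was the highest of the T1 libraries and still lay below every CTRL library. The log2 fold change was -0.48 ± 0.13 (SE), with an unadjusted p of 0.00192 and an adjusted p of 0.132 by edgeR.

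Tpi1 had 643, 495, 460 and 497 CPM in T1, against 744, 712, 737, 828 and 668 CPM in CTRL. The groups again did not overlap, with T1 replicate 1 next to the lowest CTRL library. Its log2 fold change of -0.49 ± 0.13 was the largest of the 10 and had an adjusted p of 0.131 by edgeR. Tpi1 (ENSMUSG00000023456) lies at chr6:124810586-124814296 on the minus strand and Aldoa (ENSMUSG00000030695) at chr7:126795234-126800751 on the minus strand, in GENCODE M21 on GRCm38.

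Eno1 (ENSMUSG00000063524, chr4:150236721-150248879, plus strand) had 972, 954, 736 and 820 CPM in T1, against 1006, 1241, 1213, 1338 and 1064 CPM in CTRL. The highest T1 value lay just under the lowest CTRL value. Its log2 fold change was -0.43 ± 0.14, with an adjusted p of 0.141 by edgeR.

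Pkm (ENSMUSG00000032294, chr9:59656368-59679375, plus strand) had 1666, 1368, 1275 and 1387 CPM in T1, against 1675, 1890, 1892, 2061 and 1844 CPM in CTRL. T1 replicate 1 came close to the lowest CTRL library, and the other T1 libraries lay clearly lower. The log2 fold change was -0.39 ± 0.12, with an adjusted p of 0.138 by edgeR.

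The other 4 enzymes of the lower group overlapped between T1 and CTRL. Gpi1 (ENSMUSG00000036427, chr7:34201330-34230336, minus strand) averaged 467 ± 25.7 CPM in T1 and 581 ± 58.8 CPM in CTRL (SD), which on the log2 scale is a difference of -0.31 ± 0.12 with an adjusted p of 0.163 by edgeR. Pfkl (ENSMUSG00000020277, chr10:77986947-78010083, minus strand) averaged 199 ± 10.1 CPM in T1 and 236 ± 20.3 CPM in CTRL, which on the log2 scale is a difference of -0.25 ± 0.10. In both genes the overlap came from CTRL replicate 1, the lowest control.

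Pgk1 (ENSMUSG00000062070, chrX:106187100-106203699, plus strand) had 198, 174, 140 and 122 CPM in T1, against 186, 224, 204, 234 and 191 CPM in CTRL. T1 replicate 1 lay among the controls and the other 3 below them. Its log2 fold change was -0.39 ± 0.17, with an adjusted p of 0.204 by edgeR. Ldha (ENSMUSG00000063229, chr7:46841475-46855627, plus strand) had 828, 576, 507 and 528 CPM in T1, against 664, 825, 743, 816 and 720 CPM in CTRL. T1 replicate 1 was above every control and the other 3 T1 libraries were below every control, so the mean difference of -0.31 ± 0.16 on the log2 scale joins libraries that lie on opposite sides.

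**Figure D2:**
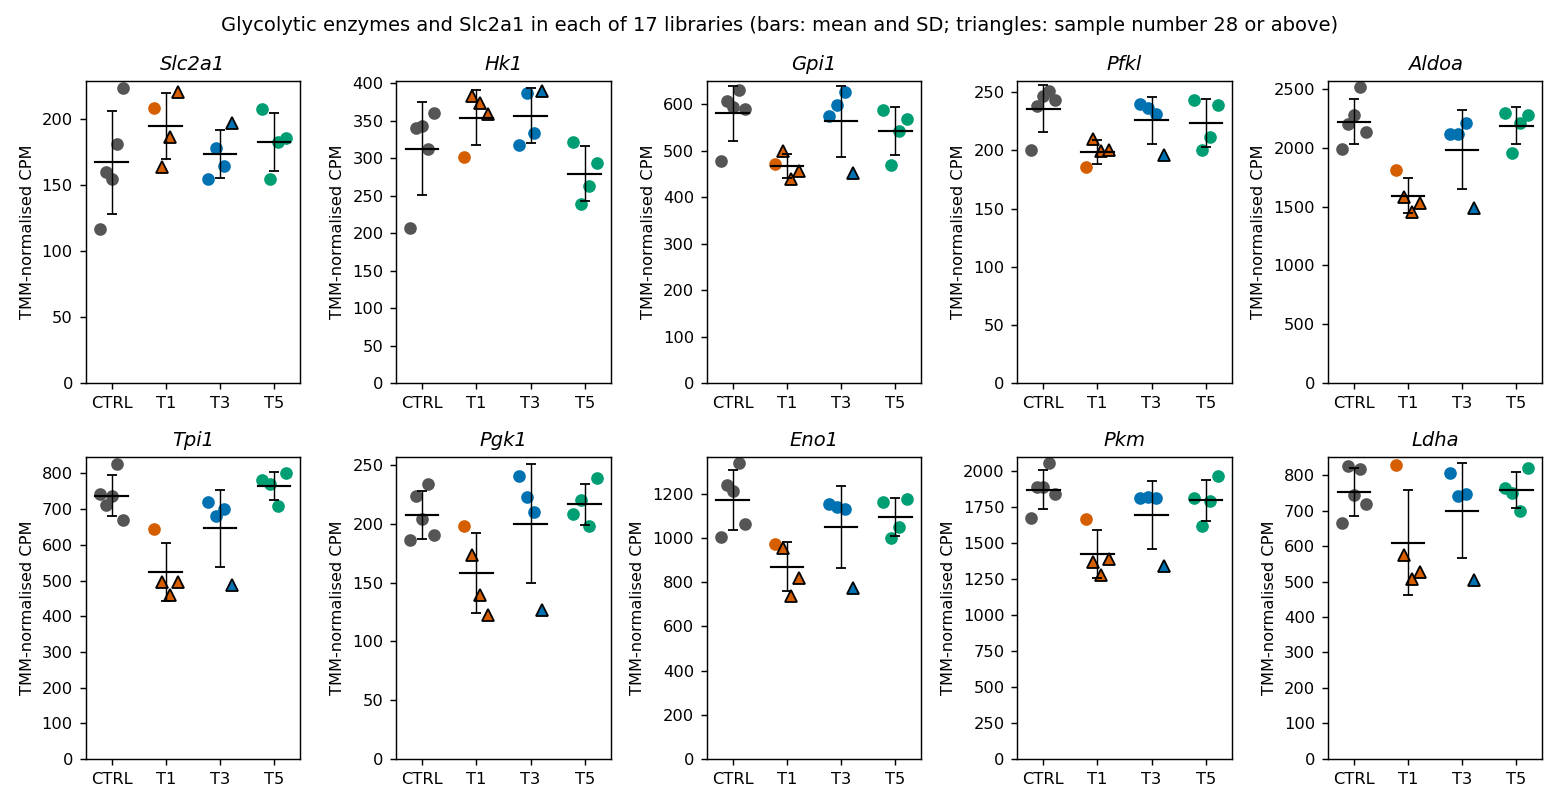
TMM-normalised CPM of each of the 10 genes in the 17 libraries, with groups CTRL, T1, T3 and T5 along the axis, horizontal lines for means, bars for SD, and triangles for libraries of sample number 28 or above. In the 8 genes from Gpi1 to Ldha, T3 replicate 4 lies with T1 replicates 2, 3 and 4 and apart from the other T3 libraries.

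The 2 genes at the entry of glucose stood apart from the rest. Slc2a1 (ENSMUSG00000028645, chr4:119108711-119137983, plus strand) had 208, 164, 186 and 220 CPM in T1, against 117, 160, 155, 181 and 223 CPM in CTRL. The groups overlapped fully, and CTRL spanned the widest range. The log2 fold change was 0.22 ± 0.15, with an adjusted p of 0.406 by edgeR. Markers of endothelial cells, which also express Slc2a1 in brain vessels, had positive log2 fold changes for 12 of 12 genes in T1 against CTRL, with a median of 1.13 and 0 called. Their summed level was 216 to 563 CPM in T1 and 113 to 263 CPM in CTRL, with no marker at 0 in any library, and their part in the Slc2a1 values was not tested. Markers of mural cells (10 of 10, median 1.12), macrophages (8 of 8, 0.60), fibroblasts (8 of 8 tested, 0.46), oligodendrocytes (8 of 8, 0.43) and neutrophils (3 of 3 tested, 1.43) were also positive in T1, with 0 called. Signs were mixed for choroid plexus epithelium (6 of 12 positive, median -0.01), astrocytes (6 of 8, 0.38), ependymal cells (5 of 8, 0.16) and erythrocytes (2 of 5 tested, -0.04), with 0 called. The part of all these cell types in the values of the 10 genes was not tested.

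Hk1 (ENSMUSG00000037012, chr10:62268855-62379908, minus strand) had 301, 383, 373 and 359 CPM in T1, against 207, 340, 344, 312 and 361 CPM in CTRL. T1 replicate 1 was the lowest of its group, the reverse of its place in Ldha and Tpi1. The log2 fold change was 0.18 ± 0.15, with an adjusted p of 0.485 by edgeR. Markers of neurons, which also express Hk1, had positive log2 fold changes for 9 of 9 genes in T1 against CTRL, with a median of 1.93 and 0 called. Their summed levels were 102 to 365 CPM in T1 and 16.02 to 122 CPM in CTRL. In T5 against CTRL these markers were also positive for 9 of 9 genes, with a median of 1.14, and Hk1 had -0.16. No neuronal marker was at 0 in any library, and their part in the Hk1 values was not tested.

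The difference in T1 was uneven across its 4 libraries. Over the 10 genes, the median log2 difference from the CTRL mean was -0.18 in T1 replicate 1, -0.27 in replicate 2, -0.56 in replicate 3 and -0.47 in replicate 4. T1 replicate 1, of low sample number, had 6 of the 10 genes below the range of CTRL and Ldha above it. T1 replicates 3 and 4 had 8 genes below that range, the enzymes from Gpi1 to Ldha. With a term for sample number 28 and above, the median log2 fold change of the 10 genes was -0.13, and without those 4 libraries it was -0.20, each with 0 of 10 called by edgeR. At an unadjusted p under 0.05, 0 of the 10 passed with the term, against 7 with all libraries and no term. The share of all genes at that level was not counted with the term, so the fall is not particular to the 10 genes. In both fits Ldha (0.13 and 0.12) and Hk1 (-0.0052 and -0.076) turned their sign, and with the term Pgk1 (0.076) did too. Without the 4, T1 rests on 1 library, whose spread is taken from the remaining groups. Leaving out T1 replicate 1 instead gave a median of -0.49, and edgeR then called 5 of the 10 lower, the 4 named above and Ldha, against 8.68% of all genes. Leaving out T3 replicate 4, which is in neither T1 nor CTRL but bears on the filter, the scaling and the spread, gave 4 lower, against 2.87% of all genes. Without T1 replicate 1, every T1 library had a sample number of 28 or above and every CTRL library a lower one. In that fit 1 day of DSS and sample number cannot be told apart. Without T3 replicate 4, the only libraries of 28 or above were T1 libraries.

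The scaling of the libraries moved the size of the difference. With library totals in place of TMM factors the median of all genes in T1 against CTRL shifted to 0.21, and the 10 genes had a median of -0.24. On log2(TPM + 1) the median of all genes was 0.25 and that of the 10 genes -0.11, with 7 of 10 negative and 0 called by limma. Relative to the median of all genes, the 10 stood at -0.43 with TMM, -0.45 with library totals and -0.37 on TPM. The order of the T1 libraries also depended on the scale. Aldoa had 1323, 1554, 1540 and 1894 TPM in T1, against 1821, 1804, 1830, 1817 and 1877 TPM in CTRL. On TPM, T1 replicate 1 was the lowest of its group and T1 replicate 4 lay above every control. T1 replicate 4 also lay within or above the CTRL range for Tpi1 (651 TPM), Eno1 (550 TPM) and Pkm (1000.1 TPM), so none of these 4 enzymes separated T1 from CTRL on TPM.

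**Figure D3:**
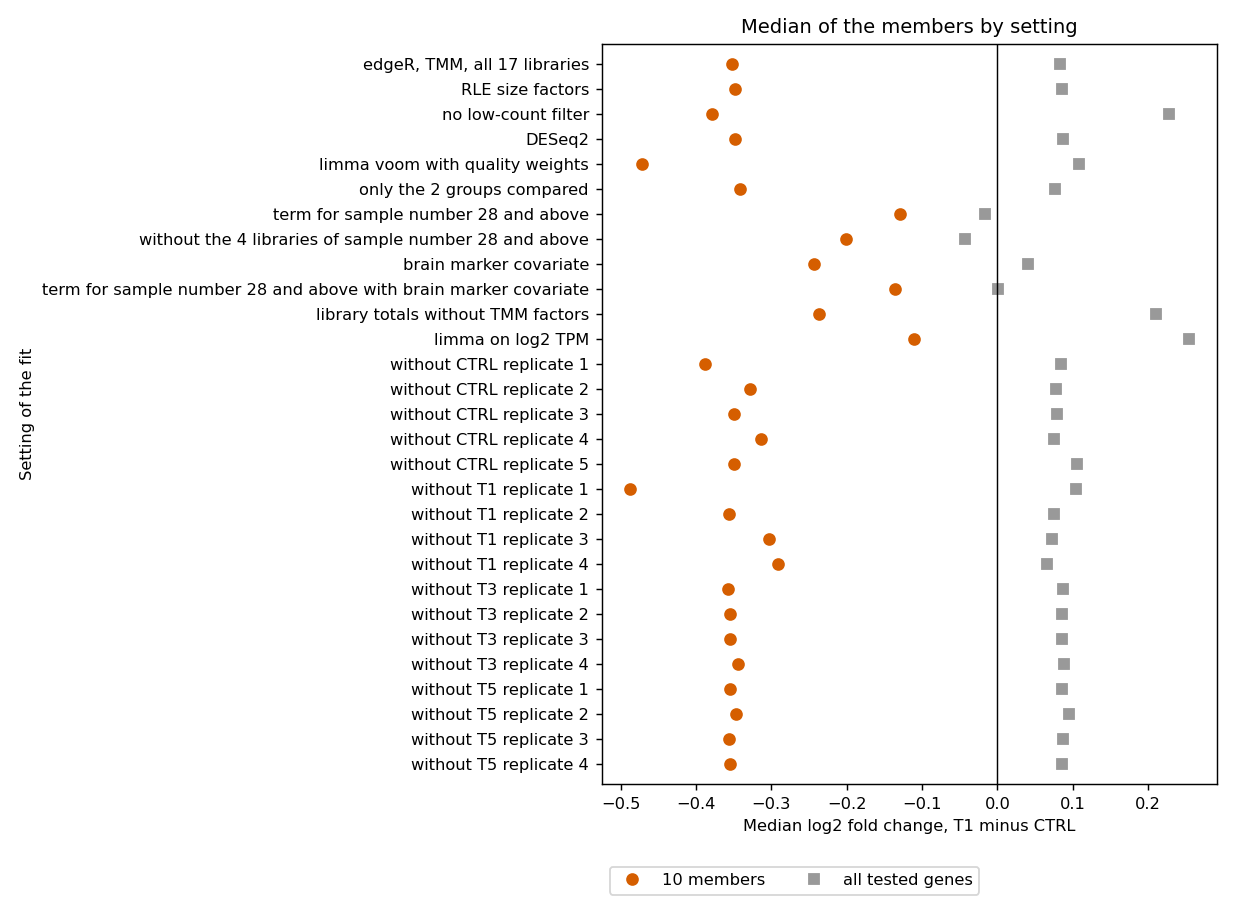
Median log2 fold change in T1 against CTRL under each setting of the fit, for the 10 genes (circles) and all genes tested (squares). The circles run from -0.49 to -0.11 and stay below 0 in every fit shown, and they lie closest to the squares with the term for sample number.

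On CPM, after 3 days of DSS the 10 genes lay close to the controls in 3 libraries and low in the fourth. In T3 against CTRL, 0 of 10 were called by edgeR, as were 0% of all genes, and 0 of 10 had an unadjusted p under 0.05, against 4.97% of all genes. None of the 10 separated the groups on CPM, against 0.92% of all genes wholly lower and 0.783% wholly higher. DESeq2 called 0 of the 10 and 2 genes in all. The median log2 fold change was -0.08, against 0.02 over all genes, and 8 of 10 were negative, against 47.3% of all genes. Tpi1 had the lowest at -0.19 ± 0.13 (adjusted p = 0.911 by edgeR) and Hk1 the highest at 0.19 ± 0.15 (adjusted p = 0.911). The remaining 8 ran from -0.16 for Aldoa and for Eno1 to 0.05 for Slc2a1.

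Aldoa had 2121, 2118, 2212 and 1491 CPM in T3, with the last value in T3 replicate 4. Pkm had 1811, 1819, 1812 and 1341 CPM, and Eno1 had 1153, 1139, 1132 and 773 CPM. In each of these genes the first 3 libraries agreed closely and lay within the CTRL range, and T3 replicate 4 lay below every control. Over the 10 genes, T3 replicates 1, 2 and 3 had a median log2 difference from the CTRL mean of -0.01, -0.0056 and -0.0041, and replicate 4 of -0.52. T3 replicate 4 had the 8 enzymes from Gpi1 to Ldha below the CTRL range and Hk1 above it, at 390 CPM. Without it, the median log2 fold change of the 10 genes in T3 against CTRL was -0.012, with 6 negative. With library totals alone, Aldoa in T3 had 2023, 2035, 2059 and 1709 CPM, the last again in replicate 4. On TPM the picture differed by gene. Aldoa had 1708, 1788, 1728 and 1711 TPM and Pkm 849, 894, 824 and 896 TPM in T3, so replicate 4 lay within or above the other T3 libraries. For Pgk1 (189 TPM) and Ldha (510.2 TPM) replicate 4 was the lowest T3 library. For Pgk1, Ldha, Eno1 (480 TPM), Tpi1 (590 TPM) and Aldoa it lay below every CTRL library. For Aldoa and Tpi1 all T3 libraries lay below every CTRL library on TPM. The highest T3 value was 1788 TPM for Aldoa and 613 TPM for Tpi1, and the lowest CTRL value was 1804 and 618 TPM. The share of all genes that separate on TPM was not counted. For Slc2a1 (188 TPM), Hk1 (153 TPM) and Pfkl (98.3 TPM) replicate 4 was the highest T3 library. The level of brain markers in T3 replicate 4, a mean of 5.60 log2 CPM, was above the 2.68 to 3.26 of the other T3 libraries, and the part of these markers was not tested apart from the sample number.

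**Figure D4:**
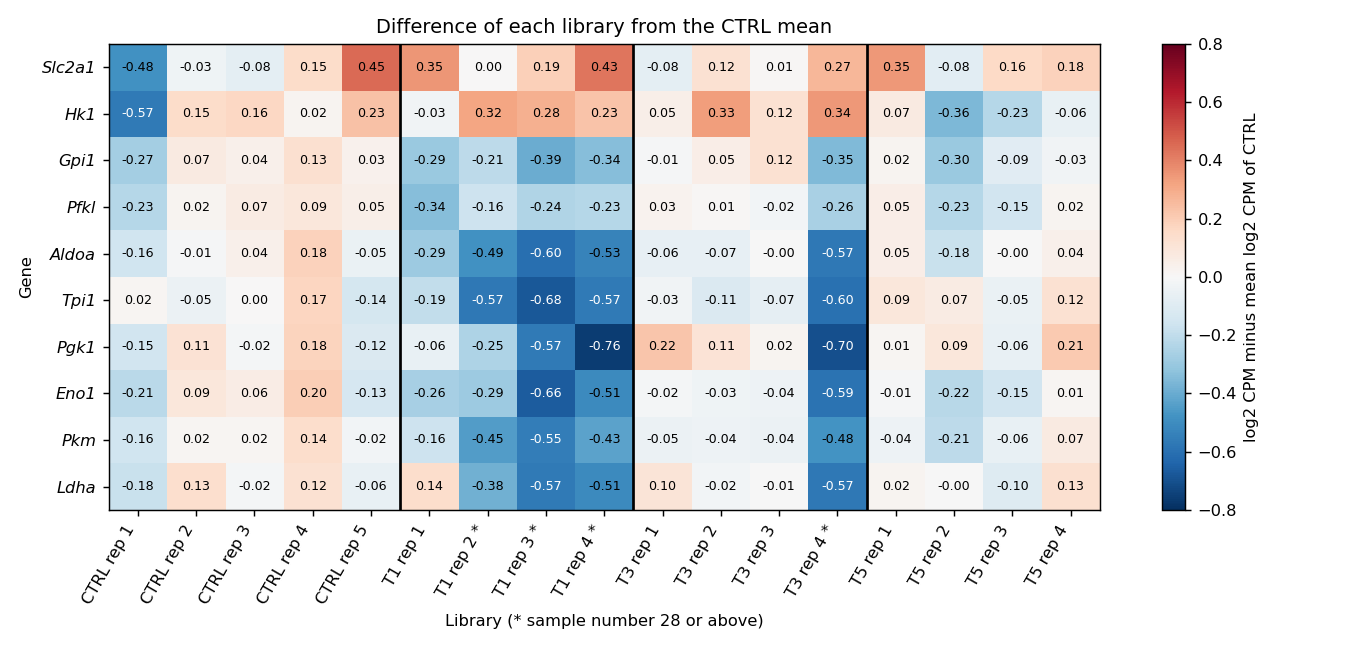
Log2 CPM of each gene minus its mean in CTRL, with genes in rows, libraries in columns, black lines between groups, and stars for sample number 28 or above. The 8 rows from Gpi1 to Ldha are blue in T1 replicates 3 and 4 and in T3 replicate 4, at -0.23 to -0.76, and the rows of Slc2a1 and Hk1 are not.

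After 3 days of DSS and 2 days of water the 10 genes were near the controls on CPM. In T5 against CTRL, 0 of 10 were called by edgeR, as were 0% of all genes, and 0 of 10 had an unadjusted p under 0.05, against 7.83% of all genes. None of the 10 separated the groups on CPM, against 1.57% of all genes wholly lower and 0.985% wholly higher. DESeq2 called 0 of the 10 and 12 genes in all. The median log2 fold change was -0.04, against 0.02 over all genes, with 6 negative, against 45.5% of all genes. Hk1 had the lowest at -0.16 ± 0.15 (adjusted p = 0.851 by edgeR) and Slc2a1 the highest at 0.13 ± 0.15 (adjusted p = 0.897). Aldoa averaged 2186 ± 158 CPM in T5 and 2222 ± 194 CPM in CTRL, a difference of -0.02 on the log2 scale with an interval of -0.28 to 0.23. Tpi1 averaged 766 ± 39.5 CPM in T5 and 738 ± 58.3 CPM in CTRL, with an interval of -0.20 to 0.31. These approximate 95% intervals are of T5 against CTRL only, and T5 was not tested against T1. In T1 against CTRL with the term for sample number, the log2 fold changes were -0.19 for Aldoa and -0.15 for Tpi1. T5 replicate 2 had Aldoa, Eno1, Gpi1 and Pkm below the CTRL range on CPM, and T5 replicates 1 and 3 lay within it for all 10 genes. On log2(TPM + 1) the median of the 10 genes in T5 against CTRL was -0.12, against -0.05 over all genes. There 9 of 10 were negative, against 59.9% of all genes, and 0 were called by limma. Eno1 had 439 to 472 TPM in T5, below every CTRL library (499 to 551 TPM). The share of all genes that separate on TPM was not counted.

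**Figure D5:**
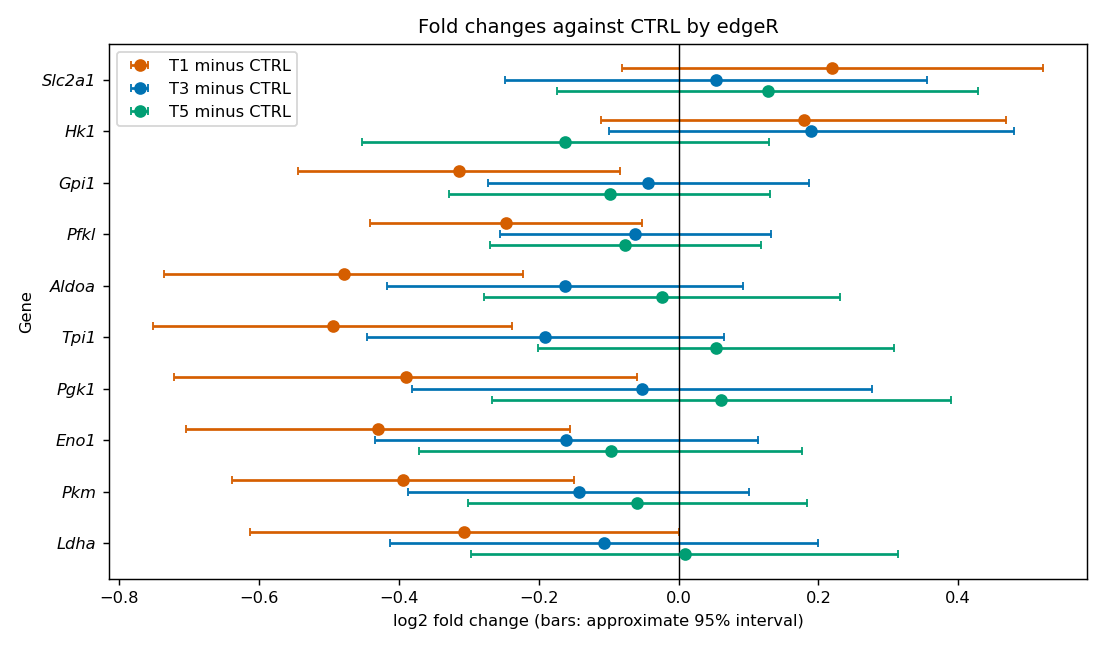
Log2 fold changes of the 10 genes in T1, T3 and T5 minus CTRL, with approximate 95% intervals from edgeR. In T1 the intervals of 7 genes lie below 0, unadjusted for the number of genes, and in T3 and T5 every interval includes 0.

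Between DSS time points, the T3 means of 9 of the 10 genes were above those of T1, with a median log2 fold change of 0.26, against -0.02 over all genes, of which 52% were below 0. In edgeR's test 0 of 10 were called in T3 against T1, as were 0% of all genes, and DESeq2 called 0 of the 10, against 0.00593% of all genes higher and 0.089% lower. None of the 10 separated the groups on CPM, against 0.949% of all genes wholly higher and 1.73% wholly lower. Aldoa (0.32 ± 0.14), Tpi1 (0.30 ± 0.14) and Gpi1 (0.27 ± 0.12) had an unadjusted p under 0.05, each with an adjusted p of 0.577 by edgeR, and 3.57% of all genes were higher and 4.63% lower at that level. The other positive values were 0.34 ± 0.18 for Pgk1, 0.27 ± 0.15 for Eno1, 0.25 ± 0.13 for Pkm, 0.20 ± 0.16 for Ldha, 0.18 ± 0.10 for Pfkl and 0.01 ± 0.16 for Hk1. Slc2a1 had -0.17 ± 0.16. This comparison sets 3 against 1 libraries of high sample number, and with a term for sample number the median was 0.06. Limma voom with quality weights, which lowers the weight of libraries far from their group, called 7 of the 10 higher and 0 lower, against 12.3% higher and 11.8% lower of all genes.

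In T5 against T3, 0 of 10 were called by edgeR, as were 0% of all genes, and DESeq2 called 0 of the 10 and 80 genes in all. Hk1 averaged 280 ± 36.2 CPM in T5 and 357 ± 36.8 CPM in T3, a log2 fold change of -0.35 ± 0.16 with an unadjusted p of 0.0379 and an adjusted p of 0.449 by edgeR. It had 322, 240, 262 and 294 CPM in T5, against 317, 386, 334 and 390 CPM in T3, so that the highest T5 library overlapped the lowest T3 library. No other of the 10 had an unadjusted p under 0.05, and 6.15% of all genes were lower and 4.31% higher at that level. None of the 10 separated the groups on CPM, against 3.04% of all genes wholly higher and 4.31% wholly lower. Of the 10, 3 were negative, against 49.1% of all genes. Tpi1 had 0.24 ± 0.14, and the other 8 ran from -0.06 for Gpi1 to 0.14 for Aldoa.

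Across libraries the levels of the 8 enzymes from Gpi1 to Ldha varied together, and those of the entry genes less so. As a description over 17 libraries that share scaling and sample number sets, log2 CPM of Aldoa and Pkm had a Pearson r of 0.98, Aldoa and Eno1 0.95, Pgk1 and Ldha 0.94, and Gpi1 and Pfkl 0.93. The mean r with the other 9 genes was 0.54 to 0.65 for the 8 enzymes from Gpi1 to Ldha, -0.10 for Slc2a1 and -0.14 for Hk1. The lowest pair was Hk1 with Tpi1, at -0.58. Among 14353 genes compared, those outside the set with levels most like the mean of the 10 included Atp5b, the beta subunit of ATP synthase (r = 0.97), Slc25a3, the mitochondrial phosphate carrier (0.97), Pepd, a peptidase of proline dipeptides (0.96), Ppp1r1b, the phosphatase inhibitor DARPP-32 (0.96), and Mtch1, a protein of the outer mitochondrial membrane (0.96).

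Levels were also compared with the brain markers, taken as the mean log2 CPM of 25 marker genes. Of 10 relations over 17 libraries, 5 passed a permutation test after Benjamini-Hochberg adjustment, all negative, with Pearson r of -0.62 for Eno1, -0.61 for Gpi1, -0.57 for Pfkl, -0.56 for Pgk1 and -0.56 for Ldha (permutation p = 0.00758, 0.00959, 0.0179, 0.0181 and 0.0206, each 0.0412 after adjustment). Spearman's rho was -0.64, -0.63, -0.45, -0.60 and -0.60, and for Pfkl its adjusted permutation p was 0.117, while for the other 4 it was 0.0319. Without CTRL replicates 2 and 3, the libraries farthest from the median of the markers, r was -0.55, -0.56, -0.48, -0.61 and -0.56. Within the 13 libraries of sample number under 28, r was -0.57 for Eno1, -0.48 for Gpi1, -0.44 for Pfkl, -0.39 for Pgk1 and -0.47 for Ldha, and -0.57 for Hk1, which had -0.22 over all 17. None of the 10 passed within these 13, where the lowest adjusted permutation p was 0.218 for Pearson's r, in Hk1 and Eno1, and 0.281 for Spearman's rho. The 5 passes were thus seen only with the 4 libraries of sample number 28 and above included. Because 13 libraries give less precision, whether the relations depend on those 4 cannot be told from this. Slc2a1 had an r of 0.34 (rho = 0.42), with an adjusted permutation p of 0.199. In T1 against CTRL, a covariate for these markers left a median log2 fold change of -0.24 over the 10 genes.

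Other isoforms and steps of glycolysis had no common sign in T1 against CTRL, with 11 positive and 6 negative. The values of this list and of those below are from the main fit. They were not examined with the term for sample number, which in T1 largely coincides with 1 day of DSS. Of 19 further isoforms and steps, 17 were tested, 0 were called by edgeR, 3 were lower at an unadjusted p under 0.05 and 1 higher, and the median log2 fold change was 0.06. Of all genes tested, 42.3% were negative, 11.7% lower and 9.43% higher at that level, with a median of 0.08. The 3 lower ones were abundant: Gapdh, the oxidative step after the trioses, averaged 825.5 ± 168 CPM in T1 and 1202 ± 126 CPM in CTRL (-0.54 ± 0.17, adjusted p = 0.138 by edgeR), Pgam1, which moves the phosphate of phosphoglycerate, had a log2 fold change of -0.45 ± 0.13 (0.138), and Ldhb had -0.47 ± 0.16 (0.152). T1 and CTRL did not overlap in these 3, as in 3.86% of all genes, wholly lower. In T3 the smallest p values were those of Hk2, Eno3 and Bpgm, at 1.08 ± 0.48, -0.41 ± 0.27 and -0.19 ± 0.13, and in T5 those of Hk3, Aldoc and Bpgm, at 1.33 ± 0.65, 0.95 ± 0.52 and 0.22 ± 0.13, with adjusted p of 0.65 or more. Pklr, the liver form of pyruvate kinase, reached at most 6 counts in a library and was not tested.

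The citric acid cycle, which takes up the product of glycolysis, had negative log2 fold changes for 17 of 18 genes in T1 against CTRL, with a median of -0.35 and 0 called by edgeR. At an unadjusted p under 0.05, 12 were lower and 0 higher. Of all genes tested, 42.3% were negative, 11.7% lower and 9.43% higher at that level. Idh2, the mitochondrial isocitrate dehydrogenase that uses NADP, averaged 247 ± 38.9 CPM in T1 and 356 ± 16.99 CPM in CTRL (-0.52 ± 0.14, adjusted p = 0.131). Suclg1, of succinyl-CoA ligase, had -0.49 ± 0.15 and Mdh2, malate dehydrogenase, -0.40 ± 0.12, each with an adjusted p of 0.138. In T3 the median of the 18 was -0.0034 and in T5 -0.0077, and in T3 against T1 all 18 values were positive, with a median of 0.31 and 0 called. The T1 values of these 18 genes were not examined with the term for sample number, so DSS and sample number cannot be told apart here.

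Pyruvate entry into mitochondria had 7 of 8 negative values in T1, with a median of -0.19, and 3 lower at an unadjusted p under 0.05, beside the same 11.7% of all genes. They were Pdhb, of pyruvate dehydrogenase (-0.36 ± 0.13), and the pyruvate carrier subunits Mpc1 (-0.49 ± 0.20) and Mpc2 (-0.43 ± 0.19), with adjusted p of 0.16, 0.189 and 0.204 by edgeR. Glycogen metabolism had 8 of 10 negative values and a median of -0.22. In that list Pgm1, which links glucose 1-phosphate to glycolysis, had the smallest p, with 81.6 ± 7.41 CPM in T1 and 113 ± 11.4 CPM in CTRL (-0.47 ± 0.10, adjusted p = 0.128). In T5 against CTRL, 9 of the 10 glycogen genes were negative with a median of -0.09, led by Pgm2 (-0.43 ± 0.14) and the glycogen phosphorylase Pygm (-0.31 ± 0.11), each with an adjusted p of 0.598.

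Lists for the control of glycolysis gave mixed signs in T1. Of 14 regulators of glycolytic flux, 9 were positive and the median was 0.14. Pdk3, a kinase that switches off pyruvate dehydrogenase, had -0.38 ± 0.14, Txnip, which limits glucose uptake, had 0.42 ± 0.19, and Pfkfb3, which makes the activator of phosphofructokinase, had 0.76 ± 0.41, with adjusted p of 0.163, 0.21 and 0.289 by edgeR. Of 14 genes of the hypoxia response, 8 were positive and the median was 0.05, and Bnip3 (-0.43 ± 0.12), Higd1a (-0.41 ± 0.15) and Kdm3a (0.33 ± 0.16) had the smallest p values. The pentose phosphate pathway had 6 of 8 negative values, a median of -0.18, and on its list Pgls at -0.59 ± 0.20, H6pd at 0.45 ± 0.20 and Taldo1 at -0.29 ± 0.14. Of the 12 tested genes for glucose and monocarboxylate transport 7 were positive with a median of 0.21, and 0 had an unadjusted p under 0.05; the smallest p was that of Slc16a1, a lactate and pyruvate carrier (-0.30 ± 0.16, adjusted p = 0.28). Of gluconeogenesis, 4 of 6 genes were too low to test (Fbp1, Fbp2, Pck1 and G6pc, with at most 7 counts in a library), and Pck2 and G6pc3 had -0.15 ± 0.12 and -0.04 ± 0.18. In all 9 lists 0 genes were called by edgeR in T1, T3 or T5 against CTRL.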

How the data were processed

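RNA sequencing counts of mouse choroid plexus were analysed in 17 libraries. The deposited values are raw counts per Ensembl gene; per the submitters' processing notes, Trimmomatic 0.39, STAR 2.6.1b and featureCounts 1.6.4 were used with GRCm38, their order, settings, annotation release and strand setting being not given in the sources used here. The labels name no molecular identifiers, so PCR copies may be among the counts. Of 55487 gene identifiers, 55394 were found in GENCODE M21, which gave symbols, coordinates and lengths for TPM. The time point label gave the groups.

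The test was edgeR 4.0.16 under R 4.3.3 (filterByExpr by group, TMM, 1 mean per group over all 17 libraries, robust quasi-likelihood F test, Benjamini-Hochberg over 16851 genes, 0.05). Values are TMM-normalised CPM; log2 CPM has a prior count of 2. SE is the absolute log2 fold change over the square root of F, and it and the 95% intervals are approximate. The common biological coefficient of variation was 37.6%. Alternatives were DESeq2 1.42.0, limma 3.58.1 and others given below. Near-identical copies were sought with blastn 2.17.0 (at least 95% identity over 200 bases). Named list genes are the 3 with the smallest p per list and comparison. The genes and lists were chosen with earlier results of these data known. Some genes that these rules name are not reported here.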

Additional observations from a re-analysis of the deposited data

Results flagged for a closer look

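A library far from the others of its group was looked for with Dixon's test in the 40 combinations of gene and group, and 6 were marked; chance marks about 1 in 20 groups, and the genes share libraries. In T3 replicate 4, Aldoa had 1491 CPM (the other T3 libraries 2118 to 2212), Eno1 773 CPM (1132 to 1153), Pkm 1341 CPM (1811 to 1819) and Tpi1 486 CPM (681 to 720). In CTRL replicate 1, Gpi1 had 479 CPM (the other CTRL libraries 591 to 631) and Pfkl had 200.4 CPM (238 to 251). CTRL replicate 1 had a TMM factor of 1.11, the highest of the 13 libraries of sample number under 28. On TPM, T3 replicate 4 had 1711 TPM for Aldoa, 480 for Eno1, 896 for Pkm and 590 for Tpi1, within or above the range of the other T3 libraries.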

How the results depend on the processing

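No paired analysis was possible because the labels give the samples no replicate numbers that groups share. Of 1400 values of the 10 genes over 28 other settings and 5 comparisons, 1278 kept their direction and side of the threshold, 28 passed it and 94 turned their sign. Those that turned were at most 0.14 in size on the log2 scale, with adjusted p of 0.635 or more. DESeq2 called 701 genes and 4 of the 10 in T1 against CTRL, 2 genes in T3 against CTRL, 12 in T5 against CTRL, 16 in T3 against T1 and 80 in T5 against T3. Limma voom called 4084 genes and 8 of the 10 in T1 against CTRL, and 4065 genes and 7 of the 10 in T3 against T1. In T1 against CTRL the median of the 10 genes became -0.13 with a term for sample number 28 and above, -0.20 without the 4 libraries of sample number 28 and above, -0.14 with that term and a brain marker covariate and -0.11 with limma on log2(TPM + 1). It became, in T3 against T1, 0.42 with limma voom and quality weights, 0.062 with a term for sample number 28 and above, 0.053 with that term and a brain marker covariate and 0.097 with limma on log2(TPM + 1). It became, in T5 against T3, -0.096 with limma on log2(TPM + 1). In T3 against T1 the median of all genes shifted to -0.12 with library totals and -0.14 on TPM. With limma on log2(TPM + 1), values with the sign turned were, in T1 against CTRL 0.011 for Pfkl, and in T3 against CTRL 0.050 for Gpi1, 0.036 for Pfkl and 0.010 for Pgk1, and in T5 against CTRL -0.028 for Tpi1, -0.021 for Pgk1 and -0.073 for Ldha, and in T3 against T1 -0.14 for Hk1, and in T5 against T3 -0.11 for Slc2a1, -0.029 for Aldoa, -0.031 for Pgk1, -0.10 for Eno1, -0.089 for Pkm and -0.047 for Ldha. With limma voom and quality weights, values with the sign turned were, in T3 against CTRL -0.030 for Slc2a1 and 0.069 for Pgk1, and in T5 against CTRL -0.015 for Ldha, and in T3 against T1 -0.087 for Hk1, and in T5 against T3 -0.030 for Pgk1, -0.041 for Eno1 and -0.00050 for Ldha. With a term for sample number 28 and above, values with the sign turned were, in T1 against CTRL -0.0052 for Hk1, 0.076 for Pgk1 and 0.13 for Ldha, and in T3 against CTRL 0.0021 for Gpi1, 0.069 for Pgk1 and 0.025 for Ldha, and in T3 against T1 -0.0065 for Pgk1 and -0.10 for Ldha, and in T5 against T3 -0.0081 for Pgk1, -0.017 for Eno1 and -0.017 for Ldha. Without the 4 libraries of sample number 28 and above, values with the sign turned were, in T1 against CTRL -0.076 for Hk1 and 0.12 for Ldha, and in T3 against CTRL -0.011 for Slc2a1, 0.050 for Gpi1, 0.0017 for Pfkl, 0.12 for Pgk1 and 0.024 for Ldha, and in T3 against T1 -0.093 for Ldha, and in T5 against T3 -0.056 for Pgk1, -0.063 for Eno1, -0.017 for Pkm and -0.017 for Ldha. With that term and a brain marker covariate, values with the sign turned were, in T1 against CTRL -0.012 for Hk1, 0.062 for Pgk1 and 0.12 for Ldha, and in T3 against CTRL 0.025 for Pgk1, and in T5 against CTRL 0.015 for Aldoa, and in T3 against T1 -0.037 for Pgk1 and -0.12 for Ldha, and in T5 against T3 -0.0037 for Slc2a1 and 0.060 for Pfkl. With a brain marker covariate alone, values with the sign turned were, in T5 against CTRL 0.060 for Aldoa, 0.026 for Eno1 and 0.016 for Pkm, and in T3 against T1 -0.026 for Hk1, and in T5 against T3 0.036 for Gpi1 and 0.051 for Pfkl. With library totals in place of TMM factors, values with the sign turned were, in T5 against CTRL -0.034 for Ldha, and in T3 against T1 -0.10 for Hk1, and in T5 against T3 -0.0055 for Slc2a1. Without the filter on low counts, values with the sign turned were, in T5 against CTRL -0.0041 for Ldha. The brain marker relation of Tpi1 became 0.072 within the 13 libraries of sample number under 28. Leaving out 1 library at a time gave 0 to 2203 genes and 0 to 5 of the 10 called in T1 against CTRL, with a median of -0.49 to -0.29, 0 to 3 genes in T3 against T1 and 0 to 1 in T5 against T3. The values whose sign turned ran in T3 against CTRL from -0.057 to 0.18 for Slc2a1, -0.11 to 0.043 for Gpi1, -0.15 to 0.11 for Pgk1 and -0.18 to 0.016 for Ldha, in T5 against CTRL from -0.036 to 0.045 for Ldha and -0.064 to 0.024 for Aldoa, in T3 against T1 from -0.055 to 0.067 for Hk1, in T5 against T3 from -0.080 to 0.030 for Pfkl, -0.15 to 0.0029 for Gpi1, -0.056 to 0.21 for Pgk1, -0.062 to 0.11 for Eno1, -0.017 to 0.13 for Pkm and -0.017 to 0.19 for Ldha. The scalings by library totals and by TPM were chosen after seeing the data. The causes of these changes were not tested.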
